A study of Caenorhabditis elegans with 11 samples.

Results

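The 10 genes described here build the eggshell of Caenorhabditis elegans or act when the oocyte becomes an embryo: perm-2, perm-4, cbd-1, chs-1, cpg-1, cpg-2, egg-1, egg-2, egg-3 and mbk-2. They were chosen by name, and all 10 of 10 were found among the 47084 genes listed and passed the filter on low counts. RNA from whole adult worms was sequenced in 11 libraries, each from about 1000 animals on day 1 of adulthood, kept at 20 °C on E. coli OP50. DAF-16 2KR (3 libraries) carries the deletion allele daf-16(mu86) and the integrated transgene iqIs85, which holds daf-16(K248 + 253R)::gfp: DAF-16, the FOXO transcription factor of the insulin pathway, with both of these lysines replaced by arginine and fused to GFP. DAF-16 WT (3 libraries) carries daf-16(mu86) and the integrated transgene iqIs79, with the same fusion unaltered, and N2 (2 libraries) is the wild-type laboratory strain without mu86, a transgene or pRF4. The groups are called 2KR, WT and N2 from here on, so WT always means the transgenic line. In both lines the transgene is driven by the promoter daf-16p and carried with the roller marker pRF4. Each line is a single integrated line, so the substitutions cannot be told apart from other differences between the lines, and the comparisons with N2 also span the deletion, the transgene and the marker.

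The eggshell of this worm is laid down in layers around the newly fertilized egg. An outer vitelline layer, already present on the oocyte, covers a middle layer of chitin, and an inner layer of chondroitin proteoglycan lies beneath, followed by a lipid-rich permeability barrier. Sperm entry sets off completion of meiosis, chitin synthesis and the release of cortical granules, and a complex at the oocyte cortex holds the enzymes for these steps until they are needed. Adult hermaphrodites keep a supply of oocytes in the gonad, where transcripts of these genes are stored.

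Total counts of the 8 libraries compared ran from 21947014 to 30810301. The 3 libraries of DAF-16 4KR, a line with 4 substituted lysines, were left out because their counts and gene names do not match. Across genes, log2(CPM + 1) correlated at 0.372 to 0.388 between a 4KR library and one of the 8 others, against 0.994 to 0.999 among the 8. Of the 10 genes, 4 had at most 13 counts in each 4KR library, where every one had at least 4333 counts in each of the 8 others. The daf-16 transcript averaged 246 ± 38.6 CPM in 2KR (SD, n = 3) and 417 ± 30.1 CPM in WT (SD, n = 3), against 152 ± 10.2 CPM in N2 (SD, n = 2), where CPM is the read count scaled to library size by the TMM method. These counts do not separate the transgene from what the deletion leaves. The rol-6 transcript, which the roller marker supplies, was at 146 ± 21.2 CPM in 2KR and 65.8 ± 7.67 CPM in WT (SD, n = 3 each), against 0.114 ± 0.0285 CPM in N2 (SD, n = 2). Markers of the other tissues of a whole worm were present in all 8 libraries, among them the muscle myosin gene unc-54 (559 to 960.2 CPM) and the adult cuticle collagen gene col-19 (866 to 1120.2 CPM).

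The 10 genes lie on 4 chromosomes of the WBcel235 assembly, as annotated by Ensembl release 115. The genes perm-4 (WBGene00016638, IV, 1121494 to 1125107, minus strand) and perm-2 (WBGene00016636, IV, 1126790 to 1128865, plus strand) are divergent neighbours, 1682 bases apart with 0 annotated genes between them. Farther along the same chromosome are cbd-1 (WBGene00010351, IV, 11372991 to 11377627, plus strand) and mbk-2 (WBGene00003150, IV, 13009158 to 13035961, plus strand). Chromosome III holds cpg-1 (WBGene00000465, 4489359 to 4491392, plus strand), egg-1 (WBGene00015083, 5728180 to 5730159, plus strand), egg-2 (WBGene00019811, 7058527 to 7060583, minus strand) and cpg-2 (WBGene00015102, 7102092 to 7103990, minus strand), of which egg-2 and cpg-2 are 41508 bases apart. The remaining genes are egg-3 (WBGene00009701, II, 10882408 to 10884441, minus strand) and chs-1 (WBGene00000496, I, 7554855 to 7559916, plus strand). All 10 are protein-coding, with exon lengths from 736 bases for perm-2 to 4843 bases for mbk-2. The annotation gives mbk-2 14 transcripts, cpg-1 and chs-1 2 each, and 1 to each of the other genes. Exons of 5 of the genes overlap those of another gene by 5 to 42 bases: for egg-1, egg-3, mbk-2 and perm-2 the partner lies on the other strand and had at most 42 counts in any library, and for chs-1 it is T25G3.3, on the same strand, with up to 4705 counts and 5 shared bases. The genes egg-1 and egg-2 are related copies, and the sources used here do not say how reads matching both were counted, so the split between them is uncertain.

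Together the 10 genes took up between 0.956% and 1.153% of the counts of a library. Their share of all counts was 1.04 ± 0.0737% in 2KR (SD, n = 3), 1.10 ± 0.0246% in WT (SD, n = 3) and 1.139 ± 0.0200% in N2 (SD, n = 2). Ordered by mean CPM over the 8 libraries, the 14361 genes tested had cbd-1 at rank 19, cpg-2 at rank 24 and cpg-1 at rank 27, and the lowest of the 10, egg-3, at rank 861.

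Levels between genes are compared per length, as CPM per kb of exon. On this scale the inner-layer gene cpg-2 was highest (mean 1320.1, SD 131 over 8 libraries). It was followed by cpg-1 (1096 ± 82.0), perm-2 (1008 ± 88.7) and perm-4 (921 ± 86.4). The vitelline gene cbd-1 stood at 609 ± 46.2, the oocyte surface gene egg-1 at 389 ± 24.7 and its copy egg-2 at 160.1 ± 7.61. The chitin synthase gene chs-1 (126 ± 6.89), egg-3 (118 ± 6.21) and the kinase gene mbk-2 (95.04 ± 6.09) were lowest. The order held within each of the 8 libraries, except that egg-3 stood above chs-1 in 1 of them. Over all libraries the ranges of neighbours overlapped for cpg-2 and cpg-1, for cpg-1 and perm-2, for perm-2 and perm-4 and for chs-1 and egg-3, although within single libraries these pairs kept that order in 8 of 8 libraries, or in 7 of 8 for chs-1 over egg-3. The highest and the lowest gene were 13.9-fold apart on this scale. The exon length of mbk-2 is the union of 14 transcripts, which lowers its value per kb if adults use the shorter ones.

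**Figure D1:**
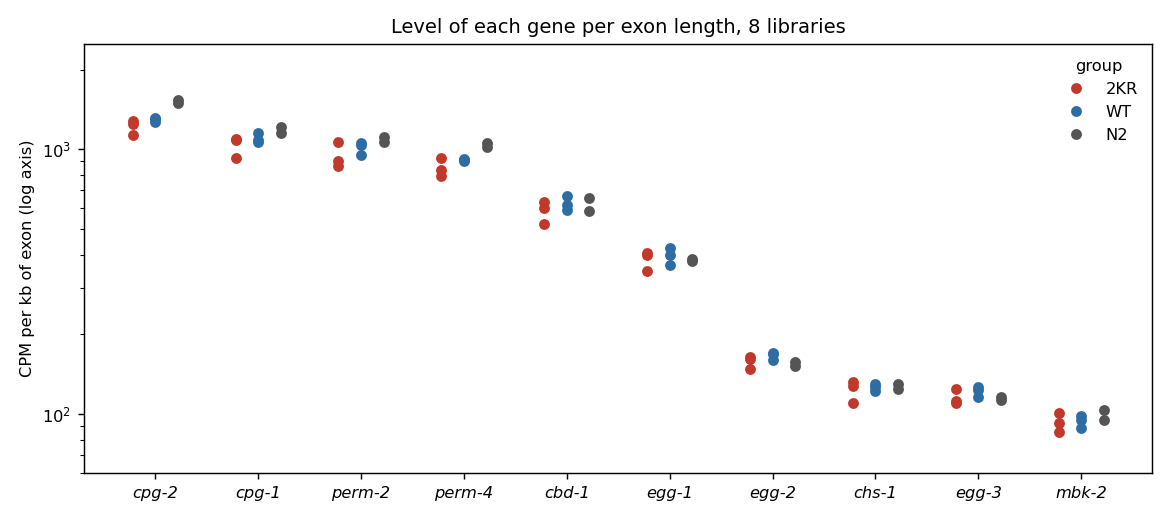
CPM per kb of exon on a log axis for each of the 10 genes, ordered by mean, with 1 point per library in 2KR (red), WT (blue) and N2 (gray). The 4 genes at the left lie between 790.0 and 1532, and chs-1, egg-3 and mbk-2 at the right lie between 85.4 and 132.

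The outer vitelline layer is represented by cbd-1, a chitin-binding protein, and by perm-2 and perm-4, proteins of the same layer that the permeability barrier needs. The level of perm-4 was 925, 1029 and 874 CPM in the 2KR libraries (replicates 1 to 3), 998, 1011 and 1018 CPM in WT and 1129.8 and 1164 CPM in N2. Every library of the lines stood below both N2 libraries, while 2KR and WT overlapped because 2KR replicate 2 was above all of WT. The fitted log2 fold change of perm-4 was -0.28 ± 0.07 SE in 2KR against N2, a decrease that passed the test (edgeR quasi-likelihood, Benjamini-Hochberg adjusted p = 0.0380 over all genes). It was -0.18 ± 0.07 SE in WT against N2 (adjusted p = 0.184) and -0.10 ± 0.06 SE in 2KR against WT (adjusted p = 0.888, edgeR). Its neighbour perm-2 had 638, 788 and 666 CPM in 2KR, 701, 764 and 779 CPM in WT and 783 and 818 CPM in N2. The WT libraries of perm-2 lay below N2 by a narrow margin, and 2KR overlapped both groups. Its log2 fold changes were -0.10 ± 0.08 SE in 2KR against WT, -0.10 ± 0.09 in WT against N2 and -0.20 ± 0.09 in 2KR against N2, and 0 of the 3 passed (edgeR adjusted p from 0.195 to 0.918). The ratio of perm-2 to perm-4 per kb was 1.11 ± 0.0647 in 2KR (SD, n = 3), 1.11 ± 0.0509 in WT (SD, n = 3) and 1.05 ± 0.0103 in N2 (SD, n = 2). For cbd-1 the values were 2678, 2541 and 2200.2 CPM in 2KR, 2822, 2611 and 2488 CPM in WT and 2758 and 2472 CPM in N2. All 3 groups of cbd-1 overlapped, and its log2 fold changes of -0.09 ± 0.08 SE in 2KR against WT, 0.01 ± 0.09 in WT against N2 and -0.08 ± 0.09 in 2KR against N2 did not pass (edgeR adjusted p from 0.619 to 0.957).

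The middle layer is made by CHS-1, the chitin synthase of the egg. The transcript was at 569, 549 and 474 CPM in 2KR, 559, 545 and 525 CPM in WT and 558 and 535 CPM in N2. Apart from 2KR replicate 3, the 7 libraries lay within 525 to 569 CPM. Fitted log2 fold changes of chs-1 were -0.03 ± 0.07 SE in 2KR against WT, with a 95% interval of -0.19 to 0.12, and -0.04 ± 0.08 in 2KR against N2, with an interval of -0.21 to 0.13. In WT against N2 the value was -0.0086 ± 0.08 SE, with an interval of -0.18 to 0.16, and it turned to 0.023 when counts were scaled by the library total alone. The paralogue chs-2, which makes chitin of the pharynx and not of the egg, was far lower, at 6.92 to 7.26 CPM in 2KR, 7.23 to 8.73 CPM in WT and 2.59 to 3.13 CPM in N2. It rose in both lines against N2, with a log2 fold change of 1.31 ± 0.15 SE in 2KR (edgeR adjusted p = 0.00109) and 1.44 ± 0.15 SE in WT (edgeR adjusted p = 7.43e-04), and both calls held without each library in turn.

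The inner layer holds CPG-1 and CPG-2, proteins that carry chondroitin chains and bind chitin. The cpg-2 transcript was at 2196, 2148 and 1956 CPM in 2KR, 2235, 2265 and 2179 CPM in WT and 2639.9 and 2577 CPM in N2. Both N2 libraries stood above all 6 libraries of the lines, and 2KR and WT overlapped. The decrease of cpg-2 in 2KR against N2 passed (log2 fold change -0.31 ± 0.07 SE, 95% interval -0.46 to -0.17, edgeR adjusted p = 0.0203). In WT against N2 the log2 fold change was -0.23 ± 0.07 SE, with an interval of -0.37 to -0.08 and an edgeR adjusted p of 0.0903, and DESeq2 called it (adjusted p = 0.0117). In 2KR against WT it was -0.08 ± 0.06 SE (edgeR adjusted p = 0.908). For cpg-1 the values were 2069, 2053 and 1759 CPM in 2KR, 2169, 2043 and 2013 CPM in WT and 2287 and 2169 CPM in N2. The 2KR libraries of cpg-1 lay below N2, and WT replicate 1 was level with the lower N2 library. Its log2 fold changes were -0.08 ± 0.07 SE in 2KR against WT, -0.10 ± 0.08 in WT against N2 and -0.18 ± 0.08 in 2KR against N2, and 0 of them passed (edgeR adjusted p from 0.185 to 0.929). The ratio of cpg-1 to cpg-2 per kb was 0.850 ± 0.0270 in 2KR (SD, n = 3) and 0.850 ± 0.0321 in WT (SD, n = 3), against 0.779 ± 0.0160 in N2 (SD, n = 2). The lines did not overlap N2, by a narrow margin: the lowest value of the lines was 0.820 and the highest of N2 was 0.790. The share of gene pairs apart in this way was not counted. Among single genes, 39.6% had WT apart from N2 and 43.8% had 2KR apart from N2.

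EGG-1 and EGG-2 are oocyte membrane proteins with LDL receptor repeats that sperm entry requires. The egg-1 transcript was at 730.1, 717 and 621 CPM in 2KR, 717, 763 and 658 CPM in WT and 693 and 682 CPM in N2. The N2 libraries of egg-1 lay inside the range of both lines. The egg-2 transcript was at 284, 289 and 262 CPM in 2KR, 298, 299.9 and 284 CPM in WT and 267 and 277 CPM in N2. WT libraries of egg-2 stood above N2, and 2KR spanned both. The log2 fold changes of egg-2 were -0.08 ± 0.05 SE in 2KR against WT, 0.11 ± 0.06 in WT against N2 and 0.03 ± 0.06 in 2KR against N2 (edgeR adjusted p from 0.344 to 0.904). Those of egg-1 were -0.05 ± 0.07 SE, 0.05 ± 0.08 and 0.0038 ± 0.08 in the same order (edgeR adjusted p from 0.792 to 0.981). The ratio of egg-1 to egg-2 per kb, 2.43 ± 0.0990 in 2KR, 2.38 ± 0.112 in WT (SD, n = 3 each) and 2.49 ± 0.0887 in N2 (SD, n = 2), overlapped between all groups.

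EGG-3, an inactive phosphatase-like protein, anchors chitin synthase and MBK-2 at the oocyte cortex. MBK-2 is a DYRK-family kinase that, once released, marks maternal proteins such as MEI-1 and OMA-1 for removal. The egg-3 transcript was at 224, 201 and 198 CPM in 2KR, 226, 208 and 221 CPM in WT and 202 and 209 CPM in N2. For mbk-2 the values were 491, 449.9 and 413 CPM in 2KR, 475, 461 and 430.0 CPM in WT and 502 and 460.5 CPM in N2. For both genes the groups overlapped in every comparison. Log2 fold changes of egg-3 were -0.07 ± 0.06 SE in 2KR against WT, 0.09 ± 0.07 in WT against N2 and 0.01 ± 0.07 in 2KR against N2 (edgeR adjusted p from 0.527 to 0.923). Those of mbk-2 were -0.01 ± 0.07 SE, -0.08 ± 0.08 and -0.09 ± 0.08 in the same order (edgeR adjusted p from 0.495 to 0.997).

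**Figure D2:**
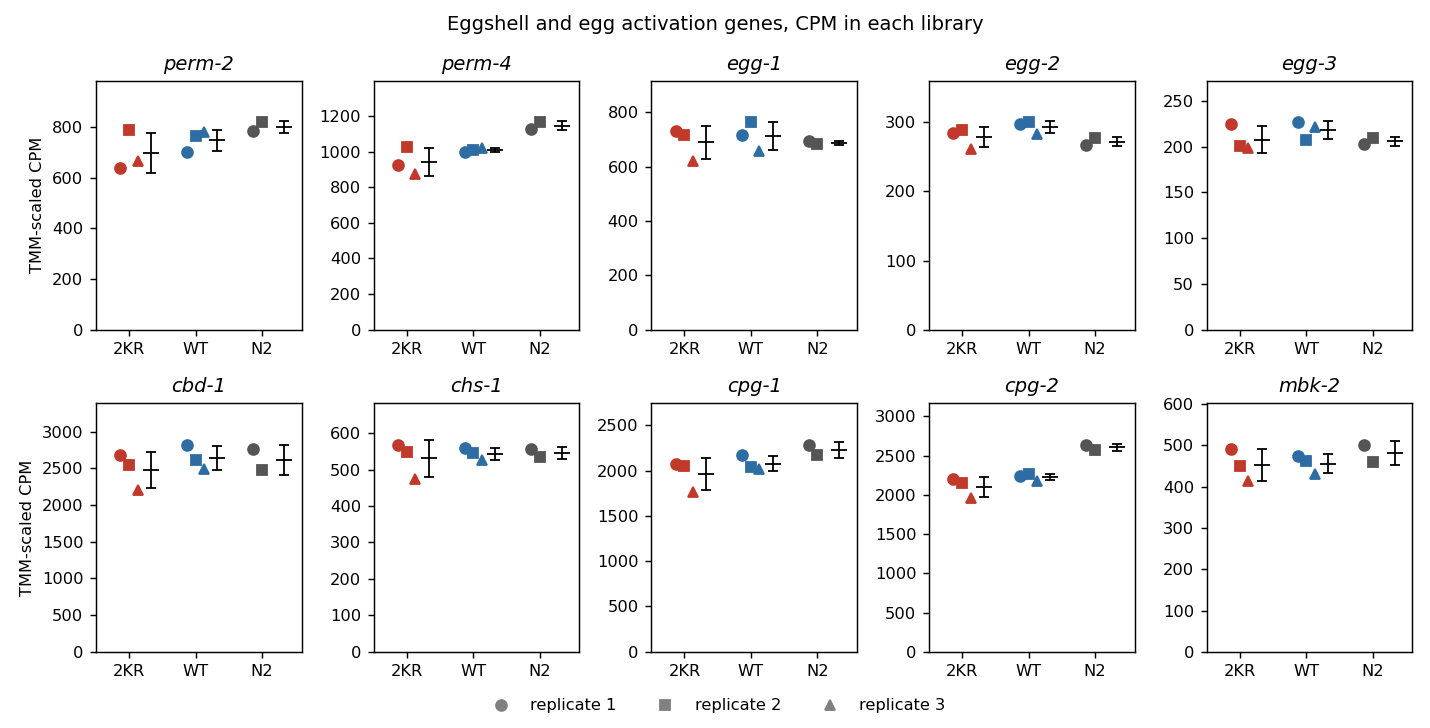
TMM-scaled CPM of each gene in 2KR (red), WT (blue) and N2 (gray), with 1 symbol per library by replicate number, and the group mean with its SD (n = 3, 3 and 2) as a black bar; each panel starts at 0. The N2 points of perm-4 and cpg-2 lie above all 6 points of the lines, and in each of the other 8 panels the points of at least 1 line overlap those of N2.

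Setting 2KR against WT asks how the transcripts differ when 2 lysines of DAF-16 are replaced, beside other differences of the lines. Of the 10 genes, 0 rose and 0 fell by the edgeR quasi-likelihood test, where 0.244% of the 14361 genes were called, 0.0766% higher and 0.167% lower. Likewise 0 of the 10 had an unadjusted p under 0.05, against 6.57% of all genes, and DESeq2 called 0. With the replicate number as a block, since equal numbers paired the 2KR and WT libraries, 221 genes passed in place of 35 (1.54%), and 0 of the 10 were among them (lowest edgeR adjusted p = 0.390). In that fit 2 of the 10, egg-2 and cbd-1, had an unadjusted p under 0.05, where 12.7% of all genes had one. Within the 3 pairs of equal number, 4 of the 10, cpg-2, egg-2, egg-3 and cbd-1, were lower in 2KR each time, against 18.3% of all genes. All 10 log2 fold changes were negative, between -0.10 and -0.01, with a median of -0.08, against a median of -0.0041 over all genes tested. The 95% intervals of the 10 together spanned -0.28 to 0.15 without the block and -0.22 to 0.07 with it. In 0 of the 10 genes were the groups apart from each other, against 10.2% of all genes.

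The common sign in 2KR against WT was weaker without 2KR replicate 3. In that library all 10 genes stood below the mean of their own group, and all 10 below their mean over the 8 libraries. The summed level of the 10 genes was 9424 CPM in that library, 12.6% below the mean of the other 2KR libraries. Over all genes 50.4% stood below the group mean in that library. The WT library of the same number was also low, with 7 of the 10 genes below the WT mean and a summed level 4.41% below the other WT libraries. Without 2KR replicate 3, 7 of the 10 genes had a negative log2 fold change, with a median of -0.03. The oocyte-to-embryo genes, the other eggshell genes and the germline syncytium markers were also lowest in 2KR replicate 3. Their sums were 9.55%, 8.98% and 7.65% below the other 2KR libraries in that order. Sperm markers, also of the germline, were 17.4% below at 37.8 CPM, but their lowest sum was 36.4 CPM in WT replicate 3. The yolk genes, made in the intestine, were 5.65% above the other 2KR libraries. In whole-worm RNA, fewer oocytes and less of a transcript per oocyte cannot be told apart. Abundant genes as a whole leaned the same way: of the 861 genes whose average log2 CPM reached that of egg-3, 77.1% had a negative log2 fold change in 2KR against WT, with a median of -0.04. This share was 58.4% without 2KR replicate 3, 56.6% without WT replicate 1 and 73.5% to 79.2% without any other 1 library. Without WT replicate 1, 9 of the 10 genes were negative, with a median of -0.05. The part of abundance in the result was not tested.

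**Figure D3:**
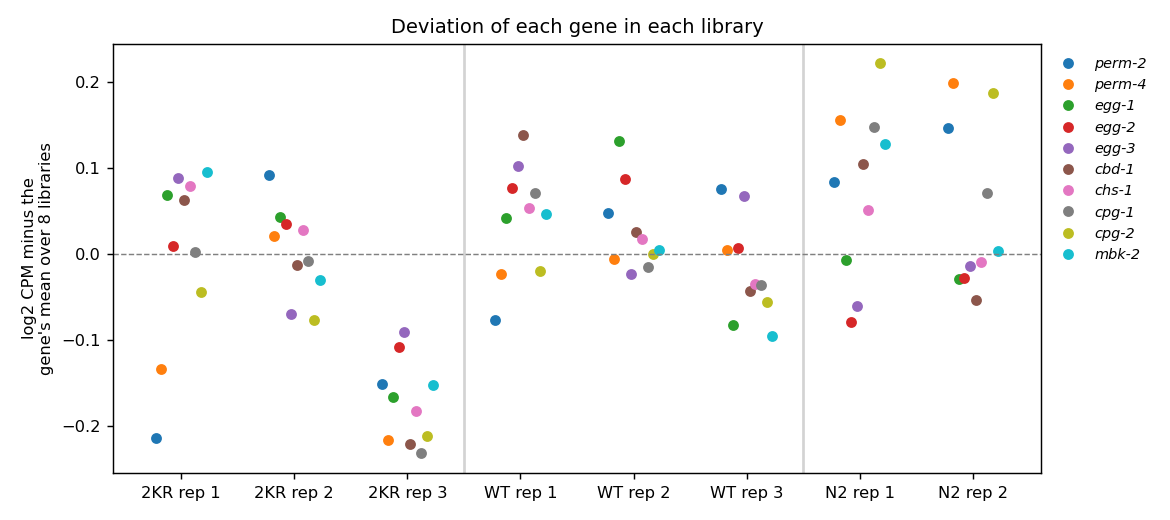
Log2 CPM of each gene minus its mean over the 8 libraries, with 1 coloured point per gene in each library; the libraries of 2KR, WT and N2 are separated by vertical lines. In 2KR replicate 3 all 10 points lie below 0, and in both N2 libraries cpg-2, perm-4, perm-2 and cpg-1 lie above 0.

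The comparison of WT with N2 sets the line with unaltered DAF-16::GFP against the laboratory strain. By edgeR 0 of the 10 genes passed, where 4.07% of genes were called, 1.86% higher and 2.21% lower. Unadjusted p was under 0.05 for 2 of the 10, cpg-2 and perm-4, and for 19.1% of all genes, and DESeq2 called 1, cpg-2. The share of all genes that DESeq2 called against N2 is not given here. Its calls against N2, here and in the lists below, therefore stand without a background. The groups did not overlap for perm-2, perm-4 and cpg-2, which were lower in WT, nor for egg-2, which was higher, and the share of all genes with groups apart was 39.6%, made up of 19.2% lower and 20.4% higher in WT. The median log2 fold change of the 10 was -0.04, against 0.0071 over all genes, and the values ran from -0.23 to 0.11. The sign of this median was not stable, as it was 0.0053 without N2 replicate 1. In the fit without 2KR replicate 3, which enters through the shared spread, cpg-2 passed in this comparison (edgeR adjusted p = 0.0459).

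In 2KR against N2, perm-4 and cpg-2 fell and 0 of the 10 rose, where 7.76% of genes were called, 3.76% higher and 4.0% lower. These decreases were small, to 82.2% of the N2 level for perm-4 and 80.5% for cpg-2. An unadjusted p under 0.05 was found for 4 of the 10, those and perm-2 and cpg-1, where 24.98% of all genes had one, and DESeq2 called perm-4 and cpg-2. In 3 of the 10 genes, perm-4, cpg-1 and cpg-2, every 2KR library was below both N2 libraries, while 43.8% of all genes had groups apart, 21.9% with 2KR lower. The median log2 fold change was -0.09, against 0.0074 over all genes. With 2 N2 libraries these calls are fragile: without N2 replicate 1 the edgeR adjusted p was 0.177 for cpg-2 and 0.189 for perm-4, and without N2 replicate 2 it was 0.123 and 0.216. The call of perm-4 was also lost without 2KR replicate 1 (0.0687), 2KR replicate 3 (0.0739) or WT replicate 3 (0.0604), with scaling by the library total (0.0573) and with the fit of these 2 groups alone (0.0541). Both comparisons with N2 use the same N2 libraries, so their values are not independent of each other.

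**Figure D4:**
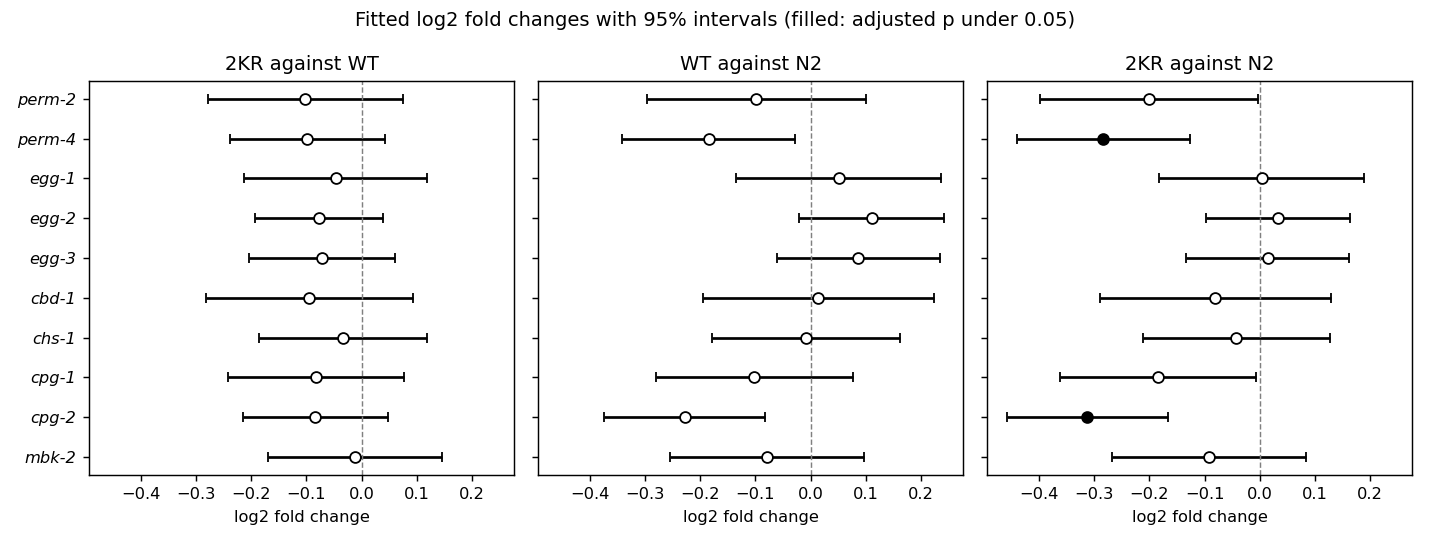
Fitted log2 fold change of each gene with its 95% interval in the 3 comparisons, computed as the first group of each panel title over the other; filled points passed an edgeR adjusted p of 0.05. The filled points are perm-4 and cpg-2 in 2KR against N2, and every point in 2KR against WT lies left of 0 with an interval that spans it.

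Of 25 other genes of eggshell assembly, edgeR called 2 in 2KR against N2, 1 in WT against N2 and 0 in 2KR against WT, where 7.76%, 4.07% and 0.244% of all genes were called. DESeq2 called 3, 3 and 0 in the same order. By edgeR 5, 5 and 2 had an unadjusted p under 0.05, where 24.98%, 19.1% and 6.57% of all genes had one. In 2KR against WT these values, and those of the lists below, leave out the pairing of the libraries by replicate number. Without that block edgeR called 35 of all genes, against 221 with it. Calls of the lists with the block are not given here. In 2KR against WT the median log2 fold change was -0.03, and the smallest unadjusted p were those of cpg-9, another chondroitin proteoglycan (0.31 ± 0.10 SE, edgeR adjusted p = 0.507), and sqv-2, of chondroitin synthesis (-0.15 ± 0.06, 0.625). In 2KR against N2 the cytochrome P450 gene cyp-31A2, needed for the permeability barrier, rose and cpg-3 fell, and in WT against N2 cyp-31A2 rose and 0 fell. The cyp-31A2 transcript was at 143, 147 and 135 CPM in 2KR and 145, 144 and 143 CPM in WT, against 106 and 104 CPM in N2. Its log2 fold change was 0.43 ± 0.05 SE in 2KR against N2 (edgeR adjusted p = 0.00141) and 0.45 ± 0.05 in WT against N2 (0.00136), calls that held without each library in turn. The related gene cyp-31A3, at 93.7 ± 5.45 CPM in 2KR and 95.6 ± 4.15 CPM in WT (SD, n = 3 each) and 88.3 ± 2.73 CPM in N2 (SD, n = 2), did not pass, and the 2 copies are so alike that the split of reads between them is uncertain. For cpg-3, another proteoglycan gene of the family of cpg-1 and cpg-2, the mean was 478 ± 33.7 CPM in 2KR (SD, n = 3) and 599 ± 34.4 CPM in N2 (SD, n = 2). Its decrease (-0.33 ± 0.07 SE, edgeR adjusted p = 0.0240) was lost without either N2 library, 2KR replicate 2 or 2KR replicate 3 (adjusted p up to 0.230). In WT against N2 the log2 fold change of cpg-3 was -0.27 ± 0.07 SE (edgeR adjusted p = 0.0687). The median of the 25 genes was 0.04 in WT against N2 and -0.00085 in 2KR against N2.

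Among 41 other genes of the oocyte-to-embryo transition, cav-1 was lower in both lines than in N2. This caveolin is a membrane protein of the cortical granules that egg activation empties. It was at 36.9, 32.4 and 30.4 CPM in 2KR and 30.9, 31.9 and 32.0 CPM in WT, against 65.2 and 51.3 CPM in N2, with no overlap. The decrease was -0.81 ± 0.11 SE in 2KR against N2 (edgeR adjusted p = 0.00227) and -0.88 ± 0.11 in WT against N2 (0.00173), and both calls held without each library in turn. It was the 1 gene of the 41 that edgeR called lower in each comparison with N2, while 0 rose, where 7.76% of all genes were called in 2KR against N2 and 4.07% in WT against N2. DESeq2 called 2 of the 41 in 2KR against N2 and 1 in WT against N2. By edgeR 3 and 2 had an unadjusted p under 0.05, where 24.98% and 19.1% of all genes had one. In 2KR against WT 0 rose and 0 fell (edgeR, 0 with an unadjusted p under 0.05, 0 by DESeq2), with a median log2 fold change of -0.04, and puf-3 (-0.10 ± 0.06 SE, edgeR adjusted p = 0.847) and mex-1 (-0.09 ± 0.06, 0.900), which encode RNA-binding regulators, had the smallest unadjusted p. The median of the 41 was 0.0068 in WT against N2 and -0.04 in 2KR against N2. The pseudophosphatase genes egg-4 and egg-5, closely related copies whose proteins work with EGG-3 to hold MBK-2, were at 205 ± 15.4 and 245 ± 13.9 CPM in 2KR, 206 ± 1.42 and 249 ± 2.94 CPM in WT (SD, n = 3 each), and 208 ± 1.09 and 242 ± 0.504 CPM in N2 (SD, n = 2). The yolk receptor gene rme-2 was at 1182 ± 69.7 CPM in 2KR, 1228 ± 73.4 CPM in WT (SD, n = 3 each) and 1151 ± 41.1 CPM in N2 (SD, n = 2). These 3 genes, picked after their values were seen, did not pass in any comparison.

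Markers of the cells around and beside the oocytes were measured in the same libraries. Their counts, and those of the sheath, yolk and tissue lists below, stand against these shares of all genes. By edgeR without the replicate block 0.244% were called in 2KR against WT, 4.07% in WT against N2 and 7.76% in 2KR against N2. An unadjusted p under 0.05 was found for 6.57%, 19.1% and 24.98% in the same order. Of 18 germline syncytium markers 0 passed in 2KR against WT (1 with an unadjusted p under 0.05) or in WT against N2 (1 with an unadjusted p under 0.05), DESeq2 called 0 in each, and in 2KR against N2 1 fell, syp-1 of the synaptonemal complex (-0.24 ± 0.06 SE, edgeR adjusted p = 0.0483), which was lost without any of 6 libraries (adjusted p up to 0.294) and not called by DESeq2. In 2KR against N2, 4 of the 18 had an unadjusted p under 0.05. The summed level of the 18 was 7724 to 8572 CPM in 2KR, 8163 to 8963 CPM in WT and 8781 to 8914 CPM in N2. Sperm markers were scarce, as 17 of 23 passed the filter and their sum was 37.8 to 47.7 CPM in 2KR, 36.4 to 58.5 CPM in WT and 46.2 to 54.5 CPM in N2. By edgeR 0 sperm markers passed in 2KR against WT (0 with an unadjusted p under 0.05, 0 by DESeq2), and spe-6 alone rose against N2, in WT (0.80 ± 0.17 SE, adjusted p = 0.0323) and in 2KR (0.65 ± 0.17, adjusted p = 0.0495), calls that DESeq2 did not make. Of the 17 sperm markers, 1 had an unadjusted p under 0.05 in WT against N2 and 3 in 2KR against N2. In each of these comparisons 13 of the 17 had a negative log2 fold change, opposite in sign to spe-6. The spe-6 call in 2KR was lost without any 1 library, and that in WT without either N2 library, WT replicate 1 or WT replicate 2. Zygotic embryo markers, which only cleaving embryos are known to express in quantity, were near the limit of detection: 6 of 10 passed the filter, with a sum of 3.54 to 5.52 CPM in 2KR, 2.58 to 2.77 CPM in WT and 3.43 to 3.97 CPM in N2. All 6 had positive log2 fold changes in 2KR against WT (median 0.81, 3 with an unadjusted p under 0.05, 0 passing by edgeR or DESeq2), led by tbx-37 (1.58 ± 0.44 SE, edgeR adjusted p = 0.382) and pes-10 (0.71 ± 0.22, 0.465). Against N2 0 of them passed by edgeR or DESeq2, with unadjusted p under 0.05 for 0 in 2KR and 1 in WT. Their part in the levels of the 10 genes was not tested.

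The members of these lists that did not pass had the following sizes. In 2KR against WT the germline markers had a median log2 fold change of -0.04, with the smallest unadjusted p for syp-1 (-0.15 ± 0.06 SE, edgeR adjusted p = 0.602) and the P granule gene pgl-3 (-0.11 ± 0.05, 0.803). In WT against N2 their median was also -0.04, led by him-3 (-0.16 ± 0.05 SE, edgeR adjusted p = 0.0934) and rec-8 (-0.11 ± 0.05, 0.267), both of meiotic chromosome axes, and in 2KR against N2 the median was -0.07. The sperm markers had medians of -0.28 in 2KR against WT, -0.42 in WT against N2 and -0.82 in 2KR against N2, each with 13 of 17 values negative. In 2KR against WT their smallest unadjusted p were those of spe-11 (-0.58 ± 0.33 SE, edgeR adjusted p = 0.855) and spe-44 (0.09 ± 0.08, 0.929). Zygotic markers had a median of -0.29 in WT against N2, with tbx-37 at -1.78 ± 0.50 SE (edgeR adjusted p = 0.0823) and pes-10 at -0.49 ± 0.25 (0.333). In 2KR against N2 their median was 0.32, with hlh-25 at 1.53 ± 0.70 SE (edgeR adjusted p = 0.209) and end-3 at 0.87 ± 0.47 (0.281).

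The gonad sheath markers, 5 genes of the cells that enclose the oocytes, summed to 582 to 606 CPM in 2KR, 559 to 634 CPM in WT and 598 to 606 CPM in N2. The homeobox gene ceh-18, which restrains oocyte maturation from the sheath, rose in 2KR against N2 (0.64 ± 0.13 SE, edgeR adjusted p = 0.0166), a call lost without either N2 library (adjusted p up to 0.187), where DESeq2 called 1 of the 5. In the other comparisons 0 of the 5 passed (edgeR, with unadjusted p under 0.05 for 0 in 2KR against WT and 2 in WT against N2, and 0 by DESeq2). There ceh-18 was at 0.18 ± 0.11 SE in 2KR against WT (edgeR adjusted p = 0.878) and at 0.46 ± 0.13 in WT against N2 (0.0837). The gap junction genes inx-9, at 0.07 ± 0.10 SE in 2KR against WT (edgeR adjusted p = 0.956), and inx-8, at 0.11 ± 0.05 in WT against N2 (0.260), had the next smallest p. In 2KR against N2, 2 of the 5 had an unadjusted p under 0.05. The medians of the 5 were 0.01 in 2KR against WT, -0.02 in WT against N2 and 0.05 in 2KR against N2. The 6 yolk genes summed to 92289 to 97627 CPM in 2KR, 86757 to 90425 CPM in WT and 94357 to 97961 CPM in N2, and 0 passed by edgeR in any comparison. DESeq2 called 1 of them in 2KR against WT, a count that stands here without the share of all genes DESeq2 called. The number of all genes that DESeq2 called there is given in the closing section. By edgeR 1 of the yolk genes had an unadjusted p under 0.05 in 2KR against WT, vit-1 (0.26 ± 0.06 SE, edgeR adjusted p = 0.259). Against N2 0 yolk genes had an unadjusted p under 0.05 in either line and DESeq2 called 0. Their medians were 0.08 in 2KR against WT, -0.13 in WT against N2 and -0.04 in 2KR against N2. Besides vit-1, the smallest unadjusted p among them were those of vit-2 in 2KR against WT (0.10 ± 0.07 SE, edgeR adjusted p = 0.879) and in WT against N2 (-0.15 ± 0.07, 0.291), where vit-1 was at -0.14 ± 0.07 (0.3202), and vit-1 (0.12 ± 0.07, 0.321) and vit-5 (-0.09 ± 0.07, 0.483) in 2KR against N2. Yolk genes were opposite in sign to the 10 genes in 2KR against WT, all 6 positive against all 10 negative. Of the 8 whole-worm tissue markers 0 passed by edgeR, with unadjusted p under 0.05 for 2 in 2KR against WT, 1 in WT against N2 and 1 in 2KR against N2, and DESeq2 called 0, 1 and 1 in the same order. Their smallest unadjusted p belonged to col-19 (0.18 ± 0.07 SE, edgeR adjusted p = 0.584) and the synaptic gene snb-1 (-0.12 ± 0.05, 0.614) in 2KR against WT. In WT against N2 they belonged to the muscle myosin gene myo-3 (0.63 ± 0.19 SE, edgeR adjusted p = 0.104) and the gut esterase gene ges-1 (0.24 ± 0.15, 0.420), and in 2KR against N2 to myo-3 (0.66 ± 0.19, 0.0635) and col-19 (0.16 ± 0.07, 0.214).

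**Figure D5:**
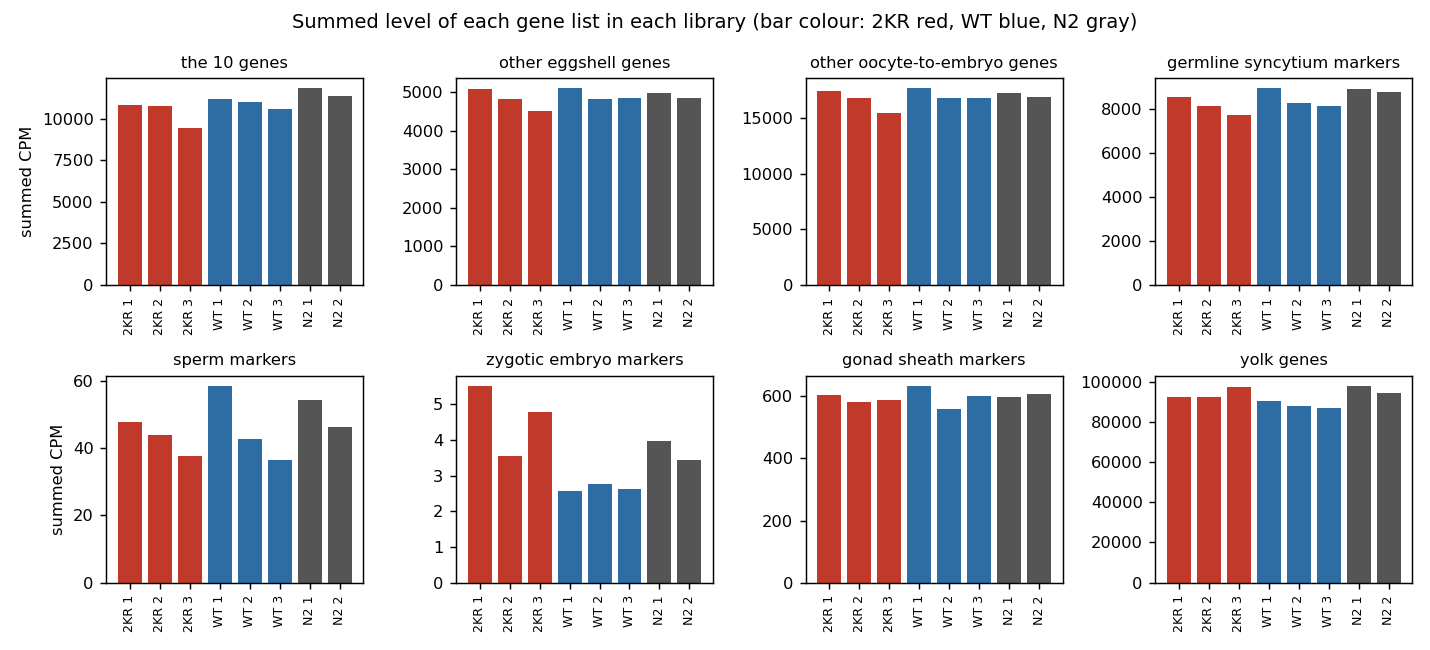
Summed CPM of 8 gene lists in each library (bars from 0; 2KR red, WT blue, N2 gray), including the 10 genes at the upper left. Within 2KR, replicate 3 is lowest for the 10 genes, the other eggshell genes, the oocyte-to-embryo genes, the germline syncytium markers and the sperm markers, and highest for the yolk genes.

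The 10 genes were also compared with each other over the libraries. The distance between profiles was measured as the root mean square difference of log2 CPM over the 8 libraries, each gene centred on its own mean. The closest pair was chs-1 and mbk-2, 0.0423 apart, and perm-2 and egg-3 were farthest apart at 0.160. The nearest gene to perm-2 was perm-4, at 0.0653, and the nearest to cpg-2 was also perm-4, at 0.0565. The gene nearest to egg-2 was egg-1, at 0.0541, while egg-1 itself was nearest to chs-1. On the same measure the mean profile of the 10 genes was followed most closely, among 6429 other genes at an average log2 CPM no lower than 4, by C49H3.6 (0.0144), akir-1 (0.0192), aap-1 (0.0203), drap-1 (0.0203) and nfyb-1 (0.0207), against a median of 0.0971 over those genes. The 10 genes themselves lay 0.0371 (chs-1) to 0.105 (perm-2) from this mean. It is therefore an average, and perm-2 was farther from it than the median of the other genes. The spread within groups, pooled over the 3 groups as the SD of log2 CPM, ran from 0.06 for egg-2 to 0.12 for cbd-1. The perm-2 to perm-4 ratio per kb was 1.04 in 2KR replicate 1 and 1.06 in WT replicate 1. It was 1.136 to 1.150 in replicates 2 and 3 of both lines. In N2 it was 1.04 in replicate 1 and 1.06 in replicate 2, whose file carries the mark of replicate 3 of the lines. The share of gene pairs split by replicate in this way was not counted.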

How the data were processed

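RNA of whole worms was measured by sequencing, 1 library per sample. Per the submitters' processing notes the tools were Trimmomatic 0.32, TopHat2 2.1.0 and DESeq2 1.14.1. The counting program, its use of strand and the genome build are not named in those notes. The deposited values are raw counts per gene, which were used here. Per the file headers there is also a scaled column (fpm, a CPM unit) made by the authors, which was left aside.

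The counts of 8 libraries were fitted in R 4.3.3 with edgeR 4.0.16 (TMM scaling, filterByExpr, quasi-likelihood test, 1 term per group), and 14361 genes were tested. Calls were made where p, adjusted by Benjamini and Hochberg over these genes, was under 0.05. Intervals are 95% intervals of the fit. Alternatives were DESeq2 1.42.0, other scaling, no filter, other sets of libraries and replicate blocks; except without the filter, they kept the same genes. Exon lengths are from Ensembl 115, which matched 46474 of 47084 genes. The script was tested on simulated data. Summaries and plots used pandas 2.3.3, NumPy 2.4.6 and matplotlib 3.10.9.

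Libraries of 1 group are biological repeats per the labels. Deviations from group means correlated across genes between equally numbered 2KR and WT libraries (0.41, 0.40 and 0.30), so those numbers pair the libraries; with 2 N2 libraries the same could not be settled. The 10 genes and the lists were chosen with earlier results of these data known. By a set rule the text names the 10 genes, daf-16, rol-6, the called genes of each list (up to 4 of smallest p) or else its 2 genes of smallest p, and the 5 genes closest to the mean profile; unc-54, cyp-31A3, egg-4, egg-5 and rme-2 were added after their values were seen. The level limit of the 861 abundant genes and the count of genes lower in all pairs were set after seeing values. No sequence is printed.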

Additional observations from a re-analysis of the deposited data

How the results depend on the processing

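The 2KR against WT result for the 10 genes, 0 called, held under every alternative run, while the count over all genes did not: 97 with DESeq2, 99 without the filter, 21 with the 2 groups alone, 221 with the replicate block, 283 with the replicate block in the 2 groups alone, 319 with the replicate block by the repeat mark in the file names (N2 replicate 2 carries the mark of replicate 3 of the lines), and 7 to 125 without 1 library, the highest without WT replicate 2. In WT against N2 all-gene counts were 911 without the filter, 1794, 1334 and 1455 with the 3 replicate blocks in the same order, and 100 to 610 without 1 library; of the 10 genes 1 was called with DESeq2 and 1 without the filter (cpg-2), 2 with the replicate block (cpg-2 and egg-2), 0 with that block in the 2 groups alone, 2 with the block by file mark (cpg-2 and perm-4), and 0 to 1 without 1 library; their median was 0.0069 with the replicate block, -0.013 by library total and -0.065 to 0.0053 without 1 library. In 2KR against N2 they were 2695, 2852 and 2457 with the blocks and 165 to 1370 without 1 library; of the 10 genes 1 was called by library total and 1 in the 2 groups alone (cpg-2), 3 with the replicate block, 4 with the block by file mark (with perm-2 and cpg-1), and 0 to 2 without 1 library. There the median of the 10 was -0.018 with the replicate block in the 2 groups alone and -0.16 to -0.012 without 1 library. For 2KR against N2, no all-gene count is given by library total or in the 2 groups alone without a block. The same holds for DESeq2 in WT against N2, so the calls in those fits stand without a background. A fit without 1 N2 library assumes that the other varies like the lines. The cause of these changes was not tested.

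Signs turned for genes near 0 that were not called. For chs-1 in WT against N2 the value was 0.023 by library total, 0.0038 without the filter, 0.043 with the replicate block, 0.015 with the block in the 2 groups alone and -0.039 to 0.025 without 1 library; in 2KR against N2 it was 0.0052 and 0.031 with the same blocks and -0.083 to 0.032 without 1 library. For egg-1 in 2KR against N2 it was -0.040 with the block by file mark. Without 1 library the ranges in 2KR against WT were -0.10 to 0.023 for egg-1, -0.077 to 0.041 for chs-1 and -0.067 to 0.047 for mbk-2. They were -0.063 to 0.10 for cbd-1 and -0.00096 to 0.11 for egg-1 in WT against N2, and -0.16 to 0.0087 for cbd-1, -0.027 to 0.074 for egg-1 and -0.031 to 0.048 for egg-3 in 2KR against N2. Of 480 values of single genes under alternatives, 437 kept direction and side of the threshold, 23 turned sign, 11 gained a call and 9 lost one. At these depths counting error is small beside the spread between libraries, and 2 N2 libraries limit the comparisons with N2.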
